A study of Mus musculus with 18 samples.

Results

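The nuclear genes for subunits of the last 3 complexes of oxidative phosphorylation were followed through the first 3 days of acute myocardial infarction (AMI) in the mouse. They were chosen by symbol alone, as the rows of the expression table that begin with Uqcr (complex III, cytochrome bc1), with Cox4 to Cox8 and a subunit letter a, b or c (complex IV, cytochrome c oxidase) or with Atp5 (complex V, ATP synthase), and that reached 1 FPKM (fragments per kilobase of transcript, scaled to the mapped fragments of the library) in at least 1 mouse. The table holds 24419 rows, 41 rows carried such a symbol, and 39 reached the level, 8 of complex III, 14 of complex IV and 17 of the ATP synthase. The other two stayed below it, Cox7b2 with at most 0.363 FPKM and 0 in 9 mice, and Cox8c listed at 0 in all 18 mice. The rule carries no value of any comparison, but it leaves out Cox4i1 and the mitochondrially encoded subunits, and it takes in Atp5s (now Dmac2l) and Atp5sl (now Dmac2), 2 assembly-related proteins that are not subunits of the ATP synthase in the strict sense.

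RNA-seq was done on heart tissue of 18 C57BL/6 mice aged 8 weeks. They were male, by the study's methods. In 15 mice the proximal left anterior descending coronary artery was ligated and the infarcted left ventricle was taken 10 min, 1 h, 6 h, 24 h or 72 h later, with 3 mice at each time. The other 3 mice form the Control group of the labels, called sham here. No transgene or drug is named for any group, and all mice were anaesthetised with sodium pentobarbital. There is 1 control group for all times, so the comparisons with sham share the same 3 mice. Each tissue piece is a mixture of cell types, and the labels do not define how the infarct was separated from surviving muscle.

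The 3 complexes follow one another in the inner mitochondrial membrane. Complex III passes electrons from ubiquinol to cytochrome c, complex IV passes them from cytochrome c to oxygen, and both move protons that drive the ATP synthase. The heart relies on this route for nearly all of its ATP, and adult heart and skeletal muscle carry their own forms of several small complex IV subunits. These are encoded by Cox6a2, Cox7a1 and Cox8b in the mouse, while Cox6a1, Cox7a2 and Cox8a encode the general forms found in most other tissues.

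The 18 libraries had FPKM sums of 542418 to 600467, and no columns were identical. No read numbers come with the FPKM, so the depth behind a value is unknown in reads. Relative depth, read from the lowest FPKM of the same genes, ran from 0.812 to 1.32 of the first sham mouse, and the 72 h mice were at 1.24 to 1.32. The part of depth in the 72 h values was not tested. Of 9 cardiomyocyte markers (Tnnt2, Tnni3, Myh6, Myl2, Actc1, Ryr2, Atp2a2, Ckm, Mb) all were above 0 in every mouse, with a summed level of 61098 to 64596 FPKM in sham. Of 5 skeletal muscle markers Myh4 was at 0 in all mice and Mylpf stayed below 1 FPKM, and of 4 fat markers Ucp1, Adipoq and Plin1 stayed below 1 FPKM, while Cidea reached 30.9 to 31.9 FPKM in sham.

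In sham the 39 genes were among the most abundant transcripts of the heart. Their FPKM summed to 7.48% ± 0.148 (SD, n = 3) of all FPKM, 19 of the 100 highest genes were among them, and 15 had a mean of at least 1000 FPKM. On the FPKM scale, which is per length, Cox6a2 was the highest with 4592, 4544 and 4429 in the 3 mice, and Cox6c, a small membrane subunit of complex IV, followed with 4161, 4426 and 4007. Cox8b had 3029, 3237 and 3019.5. The highest genes of the ATP synthase were Atp5f1 (subunit b of the stalk, 2832 ± 44.7, SD, n = 3) and Atp5g1 (subunit c of the rotor, 940.3 on average), and those of complex III were Uqcrfs1 (the Rieske iron-sulfur protein, 2259 ± 36.2) and Uqcrc2 (a core protein, 2077 ± 53.9). The lowest was Atp5s at 6.96 FPKM, and Cox6b2, a form best known from testis, was also low with 9.65 to 13.4. The muscle forms exceeded their general partners in each sham mouse, and Cox6a1 held 8.72% of the summed Cox6a FPKM, Cox7a2 19.2% of the Cox7a and Cox8a 14.1% of the Cox8 FPKM.

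The first question was how early these transcripts moved. At 10 min, 0 members were called higher and 1 lower by limma (adjusted p under 0.05 over all genes tested), where 0.248% of all genes were called higher and 0.0978% lower. At 1 h no member was called in either direction, against 0.669% and 0.0526% of all genes. At 6 h 1 member was called lower and 0 higher, against 16.8% and 11.6% of all genes. In 5, 18 and 10 members at the 3 times the AMI mice were all below the sham mice, against 8.13%, 10.9% and 30.1% of all genes. The median log2 fold changes of the 39 were -0.04, -0.12 and -0.09, and those of all genes were 0.02, -0.01 and -0.08.

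Among these early times the 1 h group had the most members below sham, although none was called. Of the 39 members 37 had a negative log2 fold change at 1 h, where the median of all genes was -0.01. The largest difference was in Uqcrb, a ubiquinone-binding subunit of complex III, with 375, 365 and 383 FPKM at 1 h against 441, 453 and 424 in sham (log2 fold change -0.23 ± 0.04 SE, limma adjusted p = 0.0928). Atp5j2, subunit f of the membrane part of the ATP synthase, followed at -0.22 (limma adjusted p = 0.165). The 2 members above sham on average were Cox6b2, at 0.22 ± 0.16 SE, and Atp5d, at 0.01, and their groups overlapped with sham. The cardiomyocyte markers had a summed level of 59552 to 61902 FPKM in these mice, close to the sham range, and 0 of 9 were called.

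The member called at 6 h was Cox8a. It had 406, 420 and 451 FPKM against 522, 479 and 527 in sham, and the groups did not overlap (log2 fold change -0.26 ± 0.07 SE, limma adjusted p = 0.0376). This call was lost without any one of the other 5 mice when each was left out, and was kept only without 6 h replicate 3, where 3 members were called lower. The count was 0 without sham replicate 1, 2 or 3 or without 6 h replicate 1. The Cox8a call was also lost with median-of-ratios scaling, with no filter, with no variance trend, with the replicate block and with the spread pooled over all 18 mice (limma adjusted p = 0.0990, 0.0546, 0.0598, 0.0787 and 0.0572). The first 6 h mouse had the lowest sum of the 39 genes in its group, 37629 FPKM against 44473 and 42201. It also had the lowest cardiomyocyte marker sum, 50643 against 61379 and 55775, and the highest leukocyte marker sum, 1199.9 against 257 and 585. The part of these markers in the 6 h values was not tested.

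**Figure D1:**
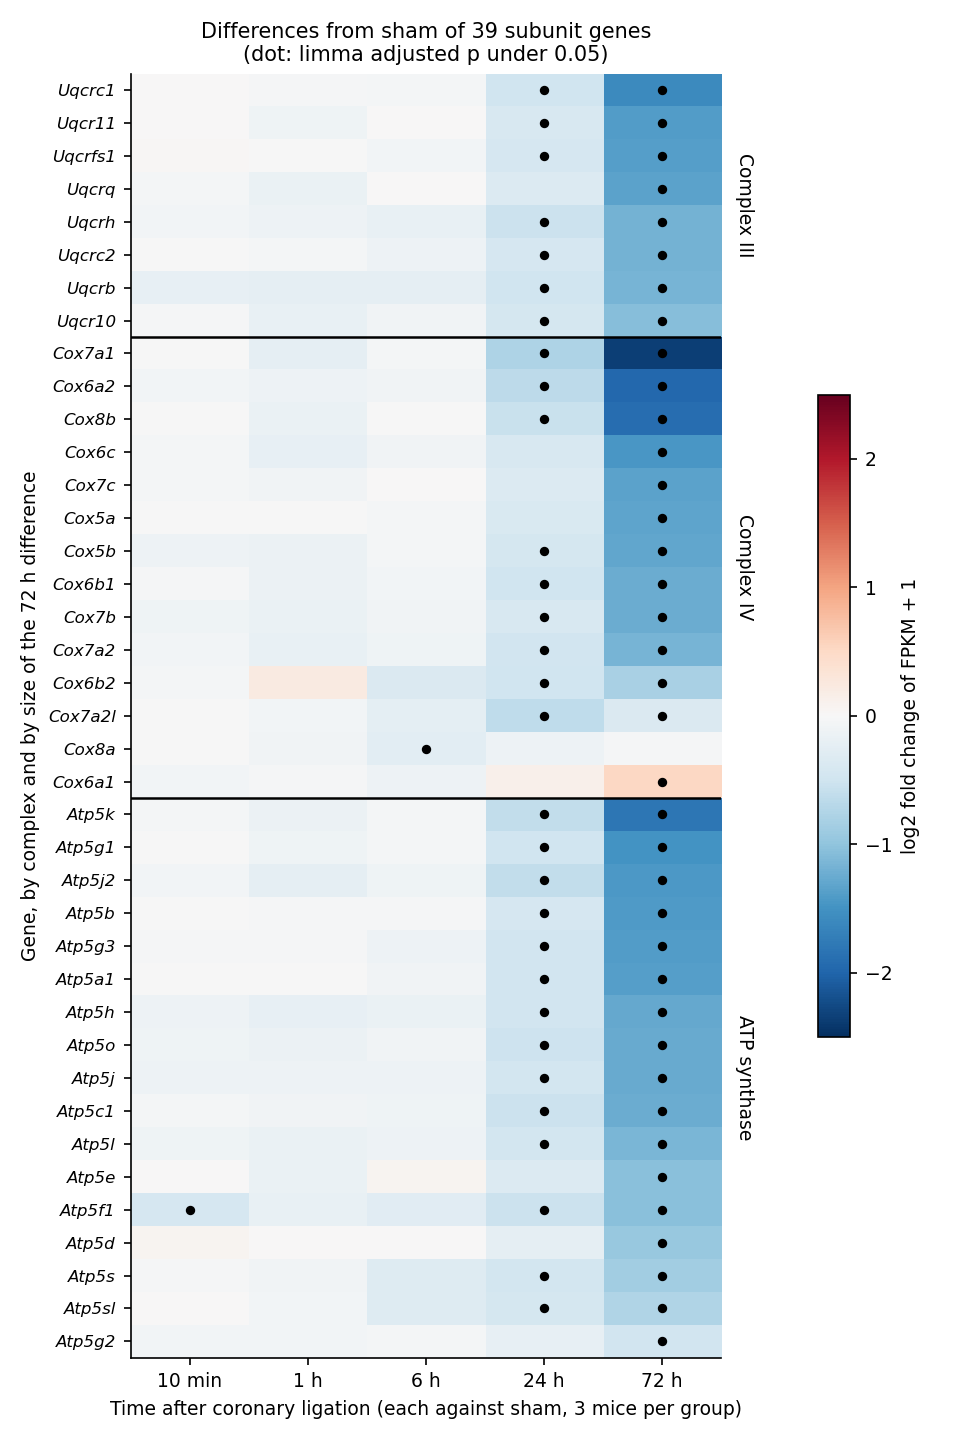
Heat map of the log2 fold change of FPKM + 1 against sham for the 39 genes (rows, by complex and by the 72 h value) at 5 times (columns, 3 mice per group), with a dot where the limma adjusted p was under 0.05. Few cells are marked up to 6 h, 30 are marked at 24 h and 38 at 72 h, and Cox6a1 is the only red marked cell, at 0.52.

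At 24 h the subunit transcripts of all 3 complexes were lower. Of the 39 members 30 were called lower, 0 higher and 9 were not called, where 11.4% of all genes were called lower and 26.2% higher. The median log2 fold change was -0.46, against 0.13 over all genes, and in 37 members all 24 h mice lay below all sham mice, which held for 18.9% of all genes. Called lower were 7 of 8 genes of complex III, 9 of 14 of complex IV and 14 of 17 of the ATP synthase, with medians of -0.43, -0.46 and -0.47. In bulk tissue fewer cardiomyocytes and less of a transcript per cardiomyocyte cannot be told apart.

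The largest fall at 24 h was in Cox7a1, the muscle form of subunit 7a, with 1287, 1194 and 872 FPKM against 1992, 1876 and 1751 in sham (log2 fold change -0.76 ± 0.16 SE, limma adjusted p = 0.0138). Cox6a2 fell by 0.66 on the log2 scale, and Cox7a2l, a factor linked to supercomplexes of complexes III and IV, fell by 0.64. Atp5k and Atp5j2, subunits e and f of the membrane part of the ATP synthase, both fell by 0.62. These 5 falls were each larger than the spread between mice, and the groups of each gene did not overlap. Not called were Cox6c, Cox5a, Cox7c, Uqcrq, Atp5e, Atp5d, Atp5g2, Cox8a and Cox6a1, with log2 fold changes from -0.39 in Cox6c to 0.13 in Cox6a1, and of these 9 only Cox8a and Cox6a1 overlapped with sham.

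The 24 h count rests on small groups. It was 0 without sham replicate 1, 0 without sham replicate 2 and 2 without sham replicate 3, against 32, 20 and 27 without each 24 h mouse in turn, and it was 18 when genes below 1 FPKM were tested too. The direction did not depend on this, since the median stayed between -0.54 and -0.35 when each mouse was left out. The 3 mice at 24 h differed, with the summed level of the 39 genes at 35098, 33708 and 27053 FPKM and the cardiomyocyte markers at 48252, 47494 and 37711 in the same order.

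At 72 h nearly all members were lower, and most had lost more than they had at 24 h. Of the 39 members 37 were called lower, 1 higher and 1 was not called, where 24.2% of all genes were called lower and 53.1% higher. The median log2 fold change was -1.25, against 0.29 over all genes, and 32 members were under 50% of their sham mean. Their FPKM summed to 3.17% ± 0.448 (SD, n = 3) of all FPKM, 7 of the 100 highest genes were still among them, and 3 had a mean of at least 1000 FPKM. The count of 37 was the same without any one of the 6 mice.

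All 8 genes of complex III were called lower at 72 h, with log2 fold changes from -1.60 to -1.06. Uqcrc1, a core protein of the complex, had 434, 284 and 322 FPKM against 1038, 1045 and 1028 in sham, or 33.4% of the sham mean (log2 fold change -1.60 ± 0.14 SE, limma adjusted p = 1.21e-05). Its partner Uqcrc2 was at 44.5% of sham and Uqcrfs1 at 38.7%. Uqcrfs1, the protein that takes the electrons from ubiquinol, had 967, 823 and 834 FPKM, all below the sham range of 2227 to 2299. The small subunits Uqcr11, Uqcrq, Uqcrh and Uqcrb fell by 1.41, 1.34, 1.19 and 1.15 on the log2 scale, and Uqcr10 fell least, by 1.06.

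Complex IV showed the widest range of the 3, from -2.36 in Cox7a1 to 0.52 in Cox6a1. The 3 largest falls of all 39 members were those of the muscle forms Cox7a1, Cox6a2 and Cox8b, at 20.03%, 25.7% and 27.4% of their sham means. Cox7a1 had 506, 301 and 319 FPKM (log2 fold change -2.36 ± 0.18 SE, limma adjusted p = 5.07e-06). Other subunits lay closer together. Cox5a and Cox5b, which lie on the matrix side, fell by 1.33 and 1.29, and Cox6b1, Cox6c, Cox7b and Cox7c fell by 1.24 to 1.46 on the log2 scale. Cox6b2 fell by 0.81 from its low level. Cox7a2l had 203, 173 and 206 FPKM against 254, 245 and 252 in sham, a fall of 0.37, and was the only called gene of complex IV that was nearer to sham at 72 h than at 24 h, where it had 183, 173 and 130. Its difference between 72 h and 24 h was not called (log2 fold change 0.27 ± 0.15 SE, limma adjusted p = 0.188).

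All 17 genes of the ATP synthase were called lower at 72 h. The catalytic head subunits alpha (Atp5a1) and beta (Atp5b) were at 38.5% and 37.4% of sham. Atp5b had 275, 217 and 219 FPKM against 630.4, 646 and 625 (log2 fold change -1.42 ± 0.10 SE, limma adjusted p = 2.99e-06). The central stalk subunits gamma (Atp5c1), delta (Atp5d) and epsilon (Atp5e) fell by 1.24, 0.95 and 1.05 on the log2 scale. The peripheral stalk genes Atp5o, Atp5h, Atp5j and Atp5f1 fell by 1.25, 1.29, 1.25 and 1.05. In the membrane part Atp5k had the largest fall of the complex, by 1.81, with 27.7, 20.01 and 21.3 FPKM against 82.8, 82.9 and 81.6 in sham, and Atp5j2 and Atp5l, subunits f and g, fell by 1.44 and 1.15. Atp5s and Atp5sl, the 2 that are not subunits proper, fell by 0.87 and 0.76 on the log2 scale.

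A total of 2 genes stood outside the common direction at 72 h, both general forms of complex IV subunits. Cox6a1 had 637, 617 and 604 FPKM against 432, 401 and 462 in sham, and no 72 h mouse was as low as any sham mouse (log2 fold change 0.52 ± 0.08 SE, limma adjusted p = 0.000344). Cox8a had 523, 472 and 493 FPKM against 522, 479 and 527, with overlapping groups (log2 fold change -0.04 ± 0.08 SE, limma adjusted p = 0.669). The scaling of the libraries bears on both: the median of all genes at 72 h was 0.29 with FPKM as deposited, 0.10 with median-of-ratios scaling, -0.12 with quantile normalization and 0.36 with libraries set to the same sum. Cox6a1 stayed called higher under each of these, between 0.28 and 0.60, while Cox8a moved from 0.04 with the same sum to -0.28 with median-of-ratios scaling, where it was called lower (limma adjusted p = 0.0202). The 7081 genes called higher and 3226 called lower at 72 h became 4279 and 5791 with quantile normalization, and the members' counts then were 1 and 37.

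The letters before the transcription start are shown for Cox7a1 and Cox8b, which fell strongly, and for Cox6a1 and Cox8a, outside the common direction. They are RefSeq reference sequence of GRCm38.p6, the build also called mm10, read 5′ to 3′ on the gene's strand, from 250 bases before the RefSeq start up to the first base annotated as exon. Cox7a1 lies on chromosome 7 at 30184144-30186078 (plus strand), and the stretch shown is chr7:30183921-30184143. Cox8b lies on chromosome 7 at 140898945-140900446 (minus strand), with chr7:140900447-140900696 shown. Cox6a1 lies on chromosome 5 at 115345642-115348981 (minus strand), with chr5:115348982-115349208 shown, and Cox8a on chromosome 19 at 7215153-7217616 (minus strand), with chr19:7217617-7217866 shown. Capitals mark every match, on either strand, to the NRF1 core GCGCATGCG, the ETS motif CCGGAAG, the SP1 box GGGCGG, the ERR motif AAGGTCA, the TATA box TATAAA and the MEF2 motif.
Cox7a1: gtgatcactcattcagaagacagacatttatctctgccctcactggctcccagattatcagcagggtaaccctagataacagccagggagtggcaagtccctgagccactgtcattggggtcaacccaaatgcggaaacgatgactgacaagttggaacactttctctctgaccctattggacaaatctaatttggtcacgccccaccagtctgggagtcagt
Cox8b: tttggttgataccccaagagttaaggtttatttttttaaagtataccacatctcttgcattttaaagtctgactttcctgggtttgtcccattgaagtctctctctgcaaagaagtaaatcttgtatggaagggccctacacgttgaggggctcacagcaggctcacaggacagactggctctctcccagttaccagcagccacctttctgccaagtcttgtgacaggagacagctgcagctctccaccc
Cox6a1: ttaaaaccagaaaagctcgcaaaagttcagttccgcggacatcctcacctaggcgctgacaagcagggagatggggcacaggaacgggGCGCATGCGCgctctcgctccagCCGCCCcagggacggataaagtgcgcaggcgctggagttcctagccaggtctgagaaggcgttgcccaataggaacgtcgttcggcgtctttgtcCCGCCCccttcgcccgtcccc
Cox8a: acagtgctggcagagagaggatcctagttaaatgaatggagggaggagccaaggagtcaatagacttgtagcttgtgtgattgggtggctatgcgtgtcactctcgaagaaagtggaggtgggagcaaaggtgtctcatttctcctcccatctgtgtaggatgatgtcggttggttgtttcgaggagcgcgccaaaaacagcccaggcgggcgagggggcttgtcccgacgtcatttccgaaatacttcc

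Only the Cox6a1 stretch holds matches, 2 overlapping NRF1 cores on opposite strands and 2 SP1 boxes. Searched over the whole 300-base window, which adds 50 bases after the start, Cox6a1 also held 1 ETS match and Cox8a 2, while Cox7a1 held none of the 6 motifs and Cox8b a TATA box just after the RefSeq start. Such windows were found for 33 of the 39 members, by current symbol or synonym, and not for Atp5a1, Cox6a2, Cox6c, Uqcrb, Uqcrc2 and Uqcrq. Members were counted by gene, with 1 or 2 windows each, and the background by window, so the 2 shares differ in unit. The NRF1 core stood in 6 of the 33 (18.2%), against 1.75% of all 32851 windows, the ETS motif in 10 (30.3% against 8.86%), the ERR motif in 4 (12.1% against 4.72%) and the SP1 box in 11 (33.3% against 35.7%). The TATA box stood in 2 (6.06% against 13.6%) and the MEF2 motif in 0, against 3.19%. The 6 with an NRF1 core were Atp5g2, Atp5k, Atp5l, Cox6a1, Uqcr11 and Uqcrc1, and they ran at 72 h from -1.81 in Atp5k to 0.52 in Cox6a1. A match is a description of the letters and not of a bound factor.

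The paired forms of one subunit can be set side by side within a mouse, since FPKM is per length. At 24 h and 72 h the general form of each pair took a larger share. Cox6a1 held 8.59%, 8.12% and 9.45% of the Cox6a FPKM in the sham mice, 11.6%, 15.2% and 16.0% at 24 h and 31.4%, 36.9% and 36.8% at 72 h. Cox7a2 held 19.2% ± 0.790 (SD, n = 3) in sham, 22.5% ± 1.03 at 24 h and 35.2% ± 3.36 at 72 h. Cox8a held 14.1% ± 1.09 in sham, 12.2% ± 1.15 at 6 h, 18.3% ± 2.56 at 24 h and 37.6% ± 5.18 at 72 h. At 72 h no mouse of any pair overlapped with sham. In bulk tissue a change of form within cardiomyocytes and a change in the mixture of cell types cannot be told apart.

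The pairs reached this in different ways. The log2 ratio of the muscle to the general form was lower at 72 h than in sham by 2.49 ± 0.14 (SE) for Cox6a, 1.19 ± 0.13 for Cox7a and 1.87 ± 0.20 for Cox8. In the Cox7a pair both genes fell, Cox7a2 from 451, 470.4 and 417 to 232, 185 and 179 FPKM, while in the Cox6a pair the general gene rose and in the Cox8 pair it was not called. Each ratio had an exact two-sided permutation p = 0.1 at 24 h and at 72 h, the smallest that 3 mice against 3 allow, and adjusted p = 0.214 over the 15 tests by the permutation test, so this design cannot pass 0.05. At 10 min and 1 h the groups overlapped in all 3 pairs, and at 6 h only the Cox8 ratio did not, with a higher ratio by 0.25 ± 0.12.

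**Figure D2:**
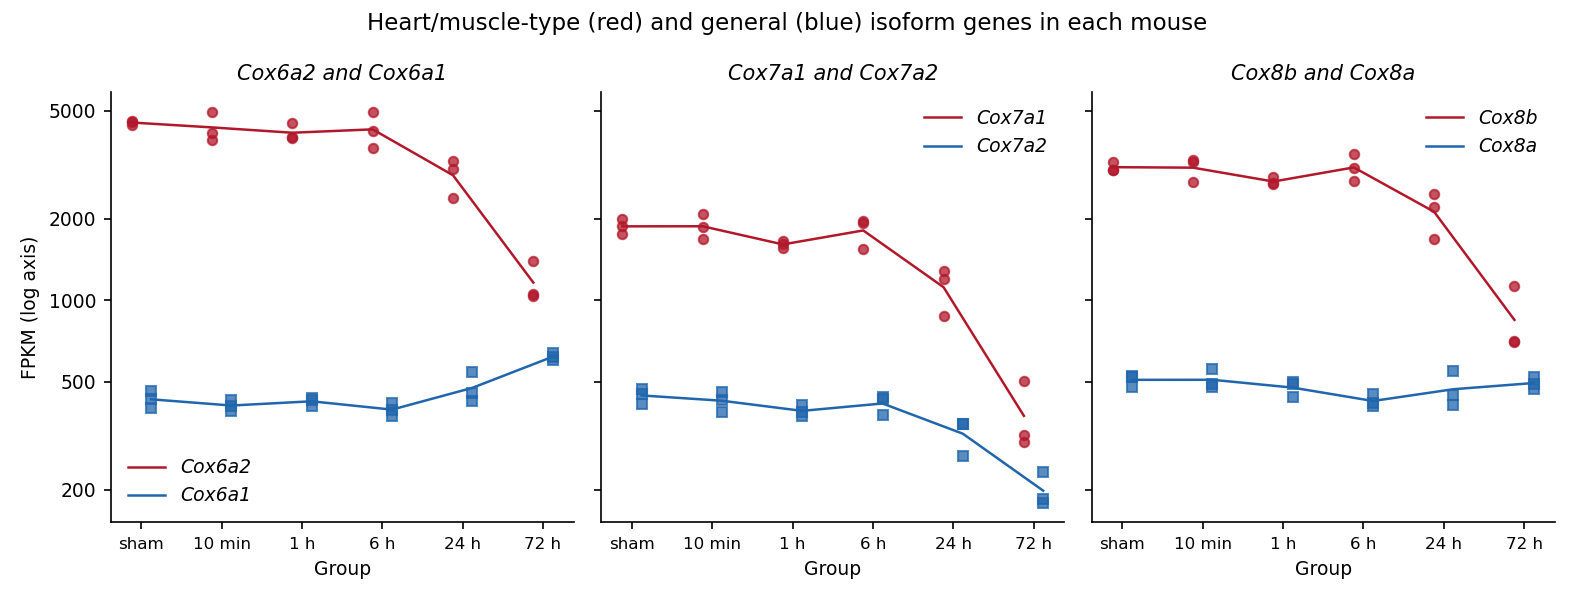
FPKM on a log axis in each mouse for the muscle form (red circles) and the general form (blue squares) of 3 cytochrome c oxidase subunits, by group, with lines through the group means. The red points drop at 24 h and 72 h in all 3 panels, and of the blue points those of Cox6a1 end higher, at 604 to 637 FPKM, and those of Cox7a2 lower, at 179 to 232 FPKM.

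The c subunit, which forms the rotor ring of the ATP synthase, is made from 3 genes whose mature protein is the same. Together they had 2174 ± 24.5 FPKM (SD, n = 3) in sham, 1701 ± 211 at 24 h and 1117 ± 154 at 72 h. Atp5g1 and Atp5g2 began level, at 43.2% ± 0.992 and 42.6% ± 1.14 of the sum, and parted from 24 h on, to 33.0%, 28.7% and 28.3% for Atp5g1 and 55.9%, 61.9% and 60.8% for Atp5g2 in the 72 h mice. Atp5g3 went from 14.1% ± 0.170 to 10.4% ± 0.923. Atp5g2 itself had 724, 632 and 630.4 FPKM at 72 h against 907, 957 and 915 (log2 fold change -0.49 ± 0.09 SE, limma adjusted p = 0.000873), and was the member of the ATP synthase nearest to sham, while Atp5g1 fell by 1.498 and Atp5g3 by 1.40.

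**Figure D3:**
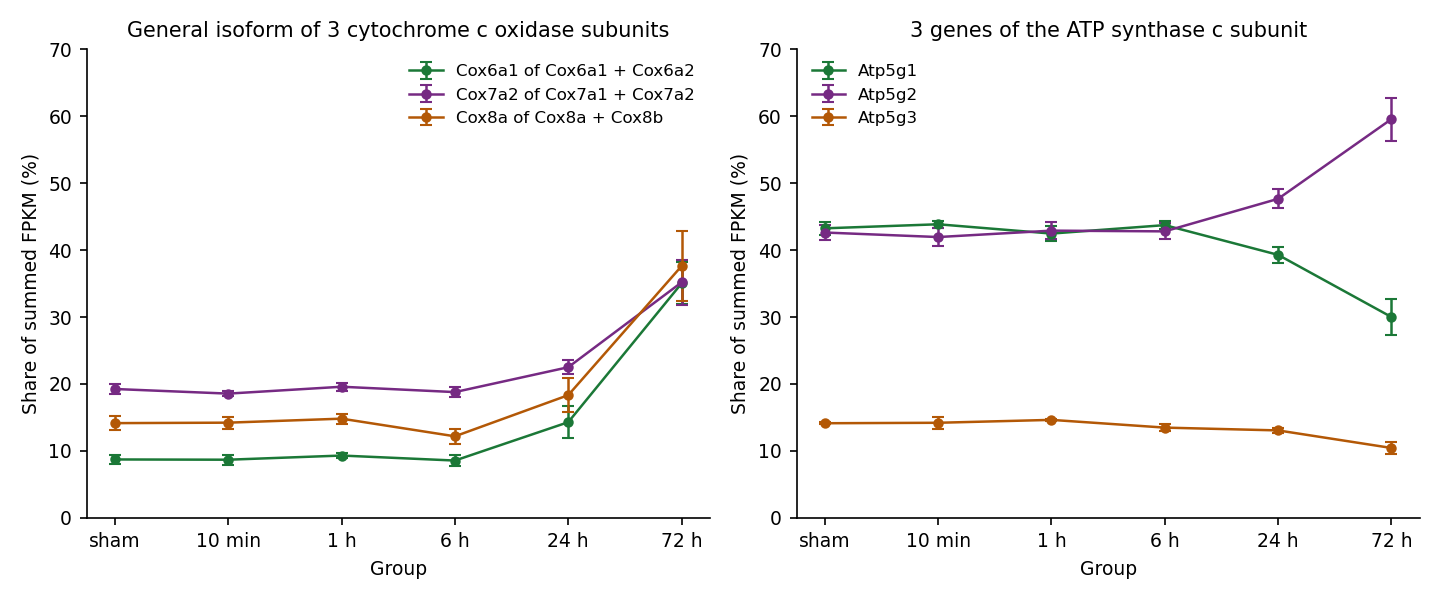
Left, the share (%) of the general form in the summed FPKM of its isoform pair, and right, the share (%) of each of 3 genes in the summed FPKM of the ATP synthase c subunit, as mean ± SD of 3 mice by group. The left curves lie between 8.56% and 19.6% up to 6 h, and the Cox8a curve has its own lowest point at 6 h (12.2%). All left curves end between 35.0% and 37.6% at 72 h. On the right Atp5g2 rises to 59.6% as Atp5g1 declines to between 28.3% and 33.0%.

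Atp5f1 differed from the other members before 24 h. It had 2073, 2172 and 2132 FPKM at 10 min against 2796, 2819 and 2882 in sham, and was the gene called at that time (log2 fold change -0.41 ± 0.05 SE, limma adjusted p = 0.0369). At 1 h the 3 mice had 2796, 2739 and 2013 FPKM and at 6 h 2401, 1883 and 2745, so that 1 mouse at 1 h and 1 at 6 h stood well below the others of their groups. At 24 h they had 1852, 2220.3 and 1833 and at 72 h 1560, 1303 and 1263. The 10 min call is not made without sham replicate 1, 2 or 3 or without 10 min replicate 2 or 3, and was kept without 10 min replicate 1. It was also not made with median-of-ratios scaling, quantile normalization, no filter, no variance trend, the replicate block or all 18 mice in the fit, with limma adjusted p from 0.0511 to 0.511. Atp5f1 lies on chromosome 3 at 105942698-105960099 on the minus strand and shares 731 bases, 105959369-105960099, with Wdr77 on the plus strand. The kit is not stated to mark strand, so reads of that overlap cannot be told apart. How the authors' processing divided them, or divided reads among Atp5f1 transcripts, was not tested. Wdr77 itself stood at 23.5 to 27.7 FPKM at 10 min and 25.7 to 27.5 in sham. At 24 h it had 37.5, 40.3 and 44.4 FPKM and was called higher than sham, by 0.61 on the log2 scale. At 72 h it was not called against sham.

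Between successive times, most of the decline fell after 24 h. From 6 h to 24 h 1 member was called lower and 0 higher, where 1.94% of all genes were called lower and 12.5% higher, with a median of -0.34 against 0.20 over all genes. The called gene was Cox7a1, at -0.71 ± 0.19 SE (limma adjusted p = 0.0449), followed by Atp5k at -0.58 (limma adjusted p = 0.0504). That count was 0 without any one 6 h mouse or without 24 h replicate 2 or 3, 6 without 24 h replicate 1, and 27 with the spread pooled over all 18 mice.

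From 24 h to 72 h 33 members were called lower, 1 higher and 5 were not called, where 13.5% of all genes were called lower and 29.7% higher. The median was -0.80, against 0.13 over all genes. The 5 largest falls were those of Cox7a1, Cox8b, Cox6a2, Atp5k and Uqcrc1, by 1.59, 1.34, 1.31, 1.19 and 1.10 on the log2 scale. Cox6a1 was higher by 0.39 ± 0.12 SE (limma adjusted p = 0.0397), a call not made without 24 h replicate 1 or 3 or any one of the 72 h mice. Not called were Atp5sl, Cox6b2, Atp5g2, Cox8a and Cox7a2l, between -0.33 and 0.27.

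Cell type markers moved over the same hours. At 24 h 6 of 9 cardiomyocyte markers were called lower with a median of -0.67, and at 72 h all 9 were, with a median of -1.76 and a summed level of 21606 to 27284 FPKM. Of 9 leukocyte markers (Ptprc, Cd68, Csf1r, Lyz2, Itgam, Tyrobp, Fcer1g, S100a8, S100a9) all 9 were called higher at 24 h and at 72 h, and their summed level rose from 196 to 220.2 FPKM in sham to 583 to 1635 and 3576 to 4726. Of 6 fibroblast markers (Col1a1, Col3a1, Pdgfra, Dcn, Postn, Lum) 4 were called higher and 1 lower at 24 h, and all 6 higher at 72 h, from 226 to 249.7 FPKM in sham to 2953 to 3666. The 5 endothelial markers (Pecam1, Cdh5, Kdr, Tie1, Egfl7) summed to 465 to 508 in sham and 409 to 515 FPKM at 72 h, with 2 called lower at 72 h. Of the skeletal muscle markers Acta1 and Tnnt3 were called higher and Ckm lower at 72 h, and of the fat markers Cidea was called lower. The part of these markers in the fall of the subunit genes, in the rise of Cox6a1 and in the shares of the paired forms and c subunit genes was not tested.

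Set against the summed FPKM of the 9 cardiomyocyte markers, the sum of the 39 genes was not lower at 24 h or 72 h. Tnnt2 was the largest part of that marker sum, with means of 22863 FPKM in sham, 20151 at 24 h and 10684 at 72 h. The ratio therefore leans on this 1 gene, and a ratio without it was not computed. The ratio of the summed FPKM was 0.692 ± 0.0131 (SD, n = 3) in sham, 0.718 ± 0.00886 at 24 h and 0.742 ± 0.0139 at 72 h, and all 72 h mice were above all sham mice. It was lowest in the 1 h group, at 0.662, and the 6 h group had 0.741. The ratio of the complex III genes was 0.166 ± 0.00314 in sham and 0.183 ± 0.00271 at 72 h. That of the complex IV genes was 0.390 in sham and 0.390 at 72 h. For the ATP synthase genes it was 0.137 ± 0.00288 in sham and 0.169 ± 0.000405 at 72 h. Atp5f1 was the largest part of the ATP synthase sum, with means of 2832 FPKM in sham and 1375 at 72 h. The sum also holds Atp5g2, which fell least of that complex, and a ratio without these genes was not computed. The log2 fold changes of the muscle forms at 72 h were -2.36 for Cox7a1, -1.97 for Cox6a2 and -1.90 for Cox8b. Those of the 9 cardiomyocyte markers spread widely, with Ckm (muscle creatine kinase) at -2.16, Myl2 (ventricular myosin light chain) at -2.04, Myh6 (alpha myosin heavy chain) at -1.88, Tnni3 at -1.88, Mb (myoglobin) at -1.76, Atp2a2 at -1.56, Tnnt2 at -1.10, Ryr2 at -0.92 and Actc1 at -0.87.

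**Figure D4:**
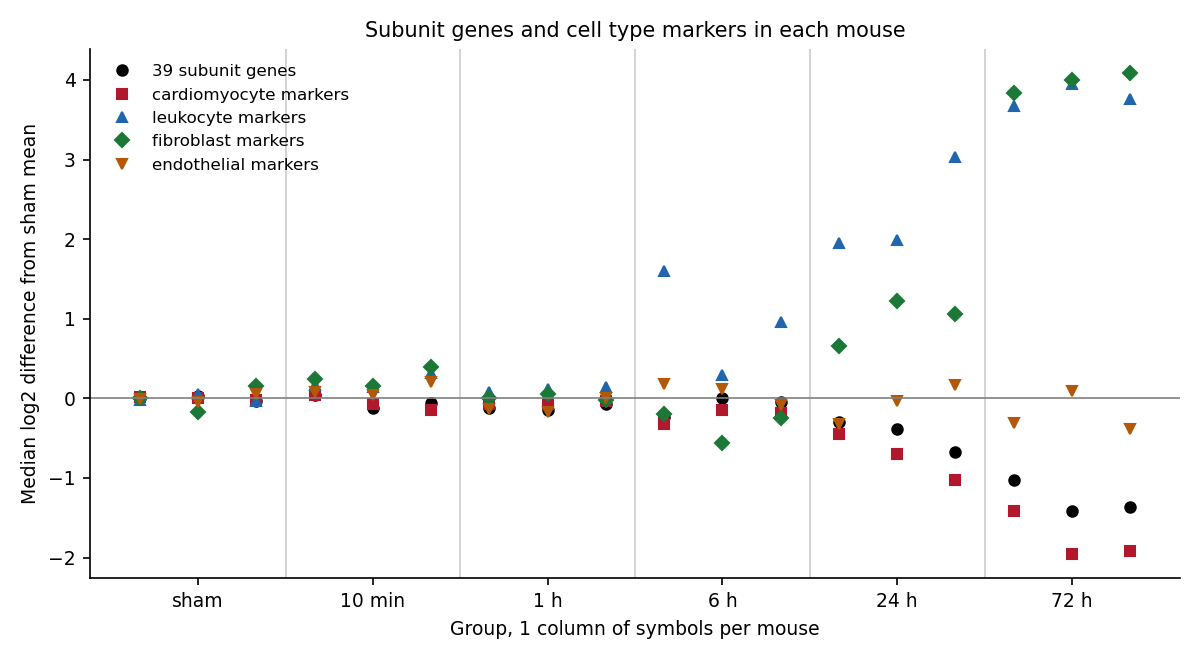
Median log2 difference from the sham mean in each mouse for the 39 subunit genes (black) and for markers of cardiomyocytes, leukocytes, fibroblasts and endothelial cells, with 1 column of symbols per mouse. Black and cardiomyocyte (red) symbols both decline at 24 h and 72 h, red further than black in each of these mice. At 72 h black lies between -1.41 and -1.03 and red between -1.95 and -1.42. The leukocyte and fibroblast symbols rise to near 4.

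Other genes of the same route were taken from a list of 51, of which 44 were tested, 6 mitochondrially encoded genes had no row and were not analysed here, and Pet117 was below 1 FPKM. None was called at 10 min or 1 h, 7 were called lower and 0 higher at 6 h, 16 lower and 2 higher at 24 h, and 34 lower and 3 higher at 72 h. Of all genes 16.8%, 11.4% and 24.2% were called lower at these 3 times, and 11.6%, 26.2% and 53.1% higher. The 6 h count of lower genes in the list was near the background. The 72 h median was -0.64, against -1.25 for the 39 members, on a scale of FPKM + 1 that understates the change of low genes. From 6 h to 24 h 2 were called higher and 0 lower, against 12.5% and 1.94% of all genes. From 24 h to 72 h 20 were called lower and 0 higher, against 13.5% and 29.7% of all genes.

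Of 9 other subunits, carriers and inhibitors 7 were called lower and 1 higher at 72 h, with a median of -1.196. At 72 h Cyc1 (cytochrome c1 of complex III), Cox4i1 (the common form of subunit 4) and Ndufa4 (now counted to complex IV) fell by 1.38, 1.40 and 1.40 on the log2 scale, and Cycs (cytochrome c) fell by 1.01. Usmg5 and 2010107E04Rik, 2 small membrane proteins of the ATP synthase, fell by 1.35 and 1.196. Cox4i2, the form of subunit 4 best known from lung, fell by 0.78 from 18.7 to 21.3 FPKM in sham. Ndufa4l2, a paralog of Ndufa4, had 60.8, 54.9 and 62.7 FPKM against 43.7, 50.2 and 51.6 and was called higher at 0.29 ± 0.08 SE (limma adjusted p = 0.0122). Atpif1, the inhibitor of ATP hydrolysis by the synthase, had 86.4, 72.1 and 78.1 FPKM against 92.6, 80.7 and 76.9 and was not called, at -0.08 ± 0.09 SE (limma adjusted p = 0.456).

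Assembly factors had smaller median changes on the scale of FPKM + 1, which understates the change of low genes. Some were low in sham, such as Lyrm7 at 4.47 and Coa4 at 3.42 FPKM on average. The part of their level in the smaller medians was not tested. At 72 h all 6 of complex III and all 5 of the ATP synthase were called lower, with medians of -0.58 and -0.74, and of 24 for complex IV 16 were called lower, 2 higher and 6 were not called, with a median of -0.51. The largest fall was that of the ATP synthase assembly factor 1110001J03Rik, by 1.44. It had fallen by 0.61 at 24 h, when Cmc2, of complex IV assembly, had fallen by 0.74. In contrast Cox18 and Cox19, which serve membrane insertion and copper delivery for complex IV, were called higher at 24 h, at 0.66 ± 0.13 and 0.64 ± 0.12 SE (limma adjusted p = 0.0110 and 0.0100), and at 72 h, at 0.46 and 0.23. At 6 h 5 of 24 complex IV assembly factors were called lower, a share near the 16.8% of all genes. They were Coa4, Coa6, Sco1, Cmc2 and Surf1, which fell by 0.51, 0.50, 0.50, 0.49 and 0.32. The other two called at 6 h were Ndufa4l2 and Cox4i2, which fell by 0.47 and 0.39.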

How the data were processed

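RNA from the hearts of 18 mice was sequenced after poly(A) selection with a NEBNext Ultra kit. Per the labels, the authors used cutadapt 1.18, HISAT2 2.1.0 and StringTie 1.3.4d with the mm10 build. Values were deposited as FPKM, 1 column per mouse and 1 row per symbol, and the annotation used is not given in the sources used here. Columns were matched to samples by name, where the names of the 1 h mice and of the second 6 h mouse each hold 1 mistyped character.

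The 13333 rows with at least 1 FPKM in at least 1 mouse were tested as log2(FPKM + 1), with limma 3.58.1 in R 4.3.3 (trend on the variance, two-sided), each comparison on its own 6 mice, and Benjamini-Hochberg adjustment over all rows tested. A gene was called at an adjusted p under 0.05. Fold changes refer to FPKM + 1, which understates the change of low genes. The limma p-values weigh a difference against the spread between the 3 mice of each group, drawn toward the trend over all rows. Isoform ratios were compared by exact permutation. The members, the pathway and marker lists and the comparisons were chosen with earlier results of these data known. Named were the isoform pairs, the c subunit genes, the 2 most abundant members per complex, core subunits, the 5 largest falls and rises among called members per comparison (the 2 largest where none was called), and members not called or higher at 72 h. Genes were placed with GENCODE M21 (38 of 39 members matched), and promoters with RefSeq GRCm38.p6. The limma step was tested on simulated data. Alternatives were other scalings, filters, pseudocount and variance models, and leaving out each mouse.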

Additional observations from a re-analysis of the deposited data

Results flagged for a closer look

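Differences between successive times after AMI mark where the effect of one time differed from that of the one before. At 72 h 33 members were lower than at 24 h and 1 was higher (limma adjusted p under 0.05). The shares of all genes were 13.5% lower and 29.7% higher. The 1 higher member was Cox6a1, with a log2 fold change of 0.39. That call was not made without 24 h replicate 1 or 3 or any one of the 72 h mice. At 24 h 1 member was lower and 0 were higher than at 6 h, against 1.94% and 12.5% of all genes. Groups of 3 mice were too small for a test of single outlying mice.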

How the results depend on the processing

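The 72 h counts against sham (37 lower, 1 higher) kept their values in all alternatives but median-of-ratios scaling, where Cox8a made 38 lower. No called value changed sign under any alternative. Leaving out 1 mouse at a time gave 0 to 1 members lower at 10 min, 0 to 3 at 6 h, 0 to 32 at 24 h, 0 to 6 from 6 h to 24 h and 28 to 34 from 24 h to 72 h, and 0 to 1 higher in that last step. The 10 min call became 0 with the replicate block, no variance trend, no filter, quantile normalization, median-of-ratios scaling and a fit over all 18 mice. The 6 h count became 0 with no filter, median-of-ratios scaling, the replicate block and no variance trend, 2 with libraries rescaled to the same sum and 3 with quantile normalization. The 24 h count became 18 with no filter, a setting in which more rows were tested. From 6 h to 24 h the lower count became 2 with a pseudocount of 0.1, with a filter on the mean and with rescaling, 3 with median-of-ratios scaling, 0 with no filter, quantile normalization and the replicate block, and 27 (and 1 higher) in a fit over all 18 mice. From 24 h to 72 h the higher count became 0 with no filter, median-of-ratios scaling and the replicate block, and 2 with all 18 mice. These settings bring fewer mice, added rows or a pooled spread, among other changes, and the cause of each shift was not tested. Counting every member at 72 h against sham and only the called members in the other comparisons, 1403 values kept their side of the threshold, 186 lost it and 1 gained it.

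Quantile normalization changed the split of all called genes at 24 h from 3496 higher and 1516 lower to 2118 and 2738, with 27 members lower. Replicate numbers did not mark pairs: over 45 same-numbered pairs the correlation of deviations was -0.327 to 0.415, and 5 exceeded 0.1. The replicate block gave 23 members lower at 24 h and 37 at 72 h.

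Without read counts the counting error of single values is unknown, and the 24 h calls rest on all 3 sham mice.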
